A study of Homo sapiens with 18 samples.

Results

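The EGF receptor family and its ligands were followed through 10 genes in A549, a human cell line established from a lung adenocarcinoma. The genes are the receptors EGFR, ERBB2 and ERBB3, the ligands HBEGF, AREG, EREG, TGFA and BTC, the receptor inhibitor ERRFI1 and the protease ADAM17. They were chosen by gene name, as 10 of the 44016 features in the deposited count table, and all 10 were among the 22382 genes that passed the filter on low counts. The list of names was drawn up with changes in these libraries already known, so the adjusted p-values below, which come from the fit over all genes, take no account of that choice.

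Messenger RNA was sequenced in 18 libraries, 3 in each of 6 groups. Wild-type (WT) cells and a line with a stable S100A16 knockdown were each taken untreated and after 2 h in 100 µM hydrogen peroxide (H2O2), while stable knockdowns of hnRNPM and of MagoHB were taken untreated only. S100A16 is a calcium-binding protein, hnRNPM a nuclear RNA-binding protein that takes part in splicing, and MagoHB a core subunit of the exon junction complex. The controls were wild-type cells throughout, without a vector-only line. The sources used here give neither how the knockdowns were made nor whether each line is 1 clone. The labels call the replicates biological without saying how the cultures were separated, so p-values measure the spread between these libraries.

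EGFR, ERBB2 and ERBB3 encode receptors that pair at the cell surface. EGFR binds the ligands listed here, ERBB2 has no known ligand of its own, and ERBB3 binds neuregulins and signals mainly through the kinase of its partner. The ligands are made as membrane-bound precursors, and ADAM17 cuts several of them, among them the precursors of amphiregulin (AREG), TGF-alpha and HB-EGF, to release the soluble factor. ERRFI1, also called MIG6, binds the EGFR kinase domain and dampens its signal, and its gene is induced by growth factor signaling. In lung adenocarcinoma EGFR is a frequent oncogene and drug target.

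Reference promoter sequences are shown for the 4 genes whose mRNA changes are described most fully below: AREG and EREG, which are neighbors on chromosome 4, HBEGF, and ADAM17. Each is the 250 bases before the annotated start in RefSeq (build GRCh38.p14), written 5′ to 3′ on the strand of the gene. Capitals mark matches to the searched motifs, which were the AP-1 site TGACTCA, the cyclic AMP response element (CRE) TGACGTCA, the CArG box, the TEAD motif CATTCC and the GC box GGGCGG on both strands, and TATAAA on the strand of the gene alone.
AREG, chr4:74444886-74445135, plus strand: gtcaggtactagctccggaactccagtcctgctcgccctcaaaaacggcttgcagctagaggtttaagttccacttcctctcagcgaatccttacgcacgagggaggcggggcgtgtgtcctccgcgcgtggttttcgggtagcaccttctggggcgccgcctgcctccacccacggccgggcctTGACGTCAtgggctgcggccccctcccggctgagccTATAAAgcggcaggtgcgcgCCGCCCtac
EREG, chr4:74364895-74365144, plus strand: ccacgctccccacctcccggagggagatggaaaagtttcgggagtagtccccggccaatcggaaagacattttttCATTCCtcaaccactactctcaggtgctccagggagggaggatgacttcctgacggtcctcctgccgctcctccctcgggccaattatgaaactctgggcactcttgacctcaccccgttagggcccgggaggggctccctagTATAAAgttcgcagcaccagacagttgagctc
HBEGF, chr5:140346604-140346853, minus strand: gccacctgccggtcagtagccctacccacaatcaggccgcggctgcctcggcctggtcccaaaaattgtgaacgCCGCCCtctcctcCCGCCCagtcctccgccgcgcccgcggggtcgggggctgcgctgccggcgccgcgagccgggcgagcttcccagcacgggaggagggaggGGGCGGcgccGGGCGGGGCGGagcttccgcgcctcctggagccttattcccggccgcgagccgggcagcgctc
ADAM17, chr2:9555831-9556080, minus strand: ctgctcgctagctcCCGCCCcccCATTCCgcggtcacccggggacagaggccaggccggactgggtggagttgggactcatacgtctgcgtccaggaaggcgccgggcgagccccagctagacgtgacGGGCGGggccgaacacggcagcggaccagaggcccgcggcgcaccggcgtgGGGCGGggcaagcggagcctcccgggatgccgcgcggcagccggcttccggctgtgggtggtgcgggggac

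AREG held TATAAA at positions -29 to -24 from the start, and EREG held it at -32 to -27. This word stood in 6.80% of the 35116 RefSeq promoters of the same length. AREG also held a CRE at -65 to -58, a motif found in 1.65% of promoters, and 1 GC box. EREG held 1 TEAD motif, found in 11.9% of promoters, and no GC box. HBEGF held 5 GC boxes, 2 of which share a base, and ADAM17 held 3 GC boxes and 1 TEAD motif. GC boxes stood in 42.6% of promoters, the AP-1 site in 4.20% and the CArG box in 1.16%. Neither of these last motifs was in the 4 windows shown. Such matches describe the letters and are not evidence of binding. Of the 10 genes, 9 had an entry in the promoter table, the exception being ERBB3.

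The libraries held 36612997 to 51406431 counts each. S100A16 mRNA was at 7.11% of untreated WT in its knockdown, HNRNPM at 20.8% in the hnRNPM knockdown and MAGOHB at 34.8% in the MagoHB knockdown (ratios of mean CPM, that is counts relative to the TMM-scaled library total, n = 3 per group). Of the 6 epithelial markers, KRT8 (3035 to 6242 CPM) and KRT18 (1285 to 2430 CPM) were abundant in every library. They made up nearly all of the summed epithelial level given below. CDH1 was at 14.0 to 103 CPM, EPCAM at 2.09 to 6.57, CLDN4 at 0.175 to 2.47 and KRT19 at 0.545 to 1.37. The surfactant genes SFTPB and SFTPC, from the list of alveolar type II and lung genes, did not exceed 0.143 and 0.136 CPM. ABCA3, a lipid transporter gene on the same list, was at 11.2 to 36.8 CPM, and the sum of the 7 listed alveolar type II and lung genes was 18.8 to 20.9 CPM in untreated WT, 31.0 to 35.5 in the untreated S100A16 knockdown, 33.2 to 38.0 in the hnRNPM knockdown and 12.7 to 21.3 in the MagoHB knockdown. The summed level of the 6 epithelial markers ran from 4611 to 5097 CPM in untreated WT, 7260 to 7752 in the untreated S100A16 knockdown, 6741 to 7055 in the hnRNPM knockdown and 4412 to 4467 in the MagoHB knockdown. Of the markers of other cells, the summed level of the 6 fibroblast genes was 25.0 to 63.4 CPM, that of the 5 endothelial genes 0.172 to 1.02, and that of the 6 leukocyte genes 76.5 to 156. The leukocyte sum was 92.8 to 103 CPM in untreated WT and 128 to 138 in the untreated S100A16 knockdown, and nearly all of it was CD68 (75.8 to 154 CPM), a lysosomal protein gene, while PTPRC, the pan-leukocyte marker, did not exceed 0.516 and CD3E 0.0476. The part of these differences in the results below was not tested, and in bulk RNA fewer cells of a type and less RNA per cell cannot be told apart. Apart from their replicates stood 3 libraries: replicate 1 of the untreated S100A16 knockdown, replicate 3 of the hnRNPM knockdown and replicate 2 of the MagoHB knockdown. In chi-square comparisons of gene counts between replicates of a group, pairs that included them differed by 30.1 to 65.6 per degree of freedom. The other replicate pairs differed by 3.09 to 5.60. These values take each count as independent, although both mates of a pair were probably counted, so their distance from sampling noise was not measured.

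In untreated WT cells, levels per length (RPKM, which corrects counts for exon length and library total) placed AREG highest at 46.0 ± 3.30 (SD, n = 3), followed by ERRFI1 at 39.2 ± 0.909 and ADAM17 at 37.1 ± 0.926. EGFR stood at 12.5 ± 0.299 RPKM, EREG at 6.48 ± 0.263, ERBB2 at 5.17 ± 0.118 and ERBB3 at 1.67 ± 0.178. HBEGF (0.652 ± 0.151), TGFA (0.196 ± 0.0538) and BTC (0.106 ± 0.0288) were the lowest. AREG mRNA was thus the most abundant of the 5 ligand mRNAs, and EGFR of the 3 receptor mRNAs.

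**Figure D1:**
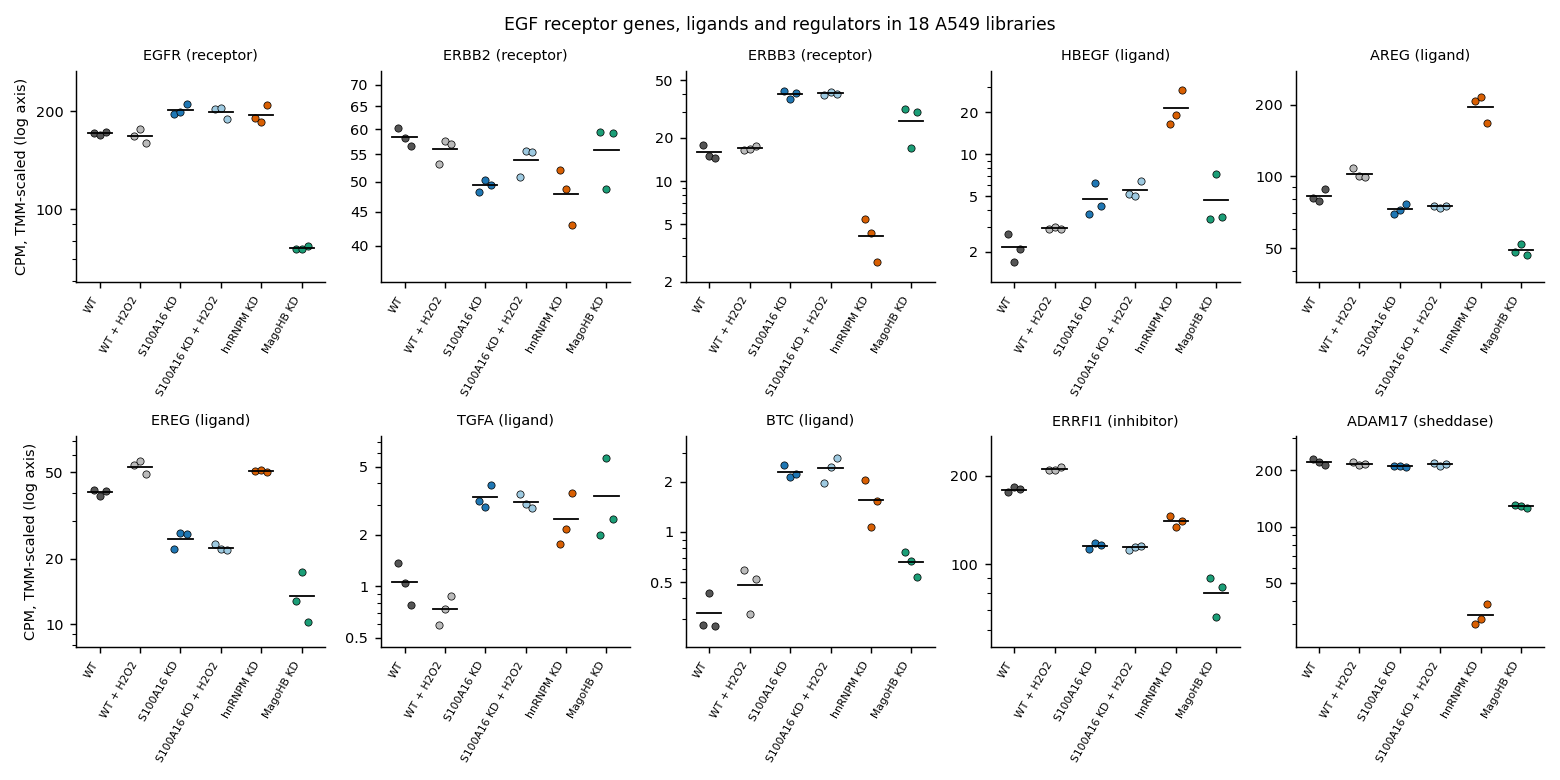
Level of each gene in every library, as TMM-scaled CPM on a log axis whose range differs between panels. Points are libraries, colored by group, and bars are the group means of 3. ADAM17 was lowest in the 3 hnRNPM knockdown libraries (30.0 to 38.5 CPM), where HBEGF was highest (16.4 to 28.6 CPM), and EGFR was lowest in the 3 MagoHB knockdown libraries (75.3 to 77.2 CPM).

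Among the receptors, EGFR changed most in the MagoHB knockdown, and ERBB3 moved in opposite directions between knockdowns. EGFR (chromosome 7, 55019021 to 55211628, plus strand, GRCh38) was measured at 171, 169 and 173 CPM in untreated WT, 196, 199 and 211 in the S100A16 knockdown, 190, 186 and 209 in the hnRNPM knockdown, and 75.3, 75.5 and 77.2 in the MagoHB knockdown. The 3 MagoHB knockdown libraries lay far below all others, while those of the other knockdowns lay above every untreated WT library by a small margin. EGFR fell by 1.17 ± 0.06 (SE) on the log2 scale in the MagoHB knockdown (edgeR adjusted p = 6.59e-13), to 44.5% of WT. It rose by 0.24 ± 0.06 in the S100A16 knockdown (adjusted p = 0.00118) and by 0.19 ± 0.06 in the hnRNPM knockdown (adjusted p = 0.00820). The call in the hnRNPM knockdown was lost without its replicate 3 (0.14, adjusted p = 0.0540). The antisense gene EGFR-AS1 overlaps exons of EGFR and fell by 0.96 in the MagoHB knockdown. It carried 71 to 219 counts per library against 3175 to 9976 for EGFR. Whether the counts used strand is not given, so reads from such overlapping pairs cannot be told apart.

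ERBB3 (chromosome 12, 56079857 to 56103505, plus strand) was at 17.8, 15.0 and 14.5 CPM in untreated WT. It was at 42.3, 37.1 and 40.7 CPM in the S100A16 knockdown, at 5.44, 4.34 and 2.74 in the hnRNPM knockdown and at 31.4, 16.9 and 29.9 in the MagoHB knockdown. All S100A16 knockdown libraries lay above WT and all hnRNPM knockdown libraries below it, whereas replicate 2 of the MagoHB knockdown lay within the WT range. ERBB3 rose by 1.34 ± 0.21 on the log2 scale in the S100A16 knockdown (2.54-fold, edgeR adjusted p = 8.93e-05) and fell by 1.92 ± 0.24 in the hnRNPM knockdown, to 26.5% of WT (adjusted p = 1.10e-05). Between those knockdowns the difference was 9.60-fold (log2 3.26 ± 0.24, adjusted p = 3.25e-08). In the MagoHB knockdown it rose by 0.72 ± 0.21 (adjusted p = 0.0119), a call lost when replicate 1 or 3 of that knockdown, or WT replicate 3, was left out (log2 0.56 to 0.96 over the single libraries left out, adjusted p up to 0.0576). A second annotated feature on the same strand, RP11-603J24.9, overlaps ERBB3 exons and carried 6399 to 14728 counts per library against 130 to 1926 for ERBB3. That feature fell by 1.06 in the S100A16 knockdown, by 0.45 in the hnRNPM knockdown and by 0.56 in the MagoHB knockdown (all with adjusted p under 0.05), so the levels of ERBB3 depend on how shared reads were assigned, which is not given.

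ERBB2 (chromosome 17, 39687914 to 39730426, plus strand) varied least of the receptors, with 60.2, 58.2 and 56.6 CPM in untreated WT and 43.0 to 60.2 CPM over the untreated libraries. Both the S100A16 knockdown (48.2, 50.3 and 49.5 CPM) and the hnRNPM knockdown (52.0, 48.8 and 43.0 CPM) lay wholly below WT. ERBB2 fell by 0.24 ± 0.08 on the log2 scale in the former (edgeR adjusted p = 0.00990) and by 0.28 ± 0.08 in the latter (adjusted p = 0.00346). Scaling by total counts alone ended the call in the S100A16 knockdown (log2 -0.00). MIEN1 and PGAP3, on the opposite strand, share exon bases with ERBB2. MIEN1, with 697 to 1131 counts per library against 1732 to 2850 for ERBB2, fell by 0.43 and 0.34 in the same knockdowns; reads of the shared bases cannot be told apart if strand was not used in counting. MagoHB knockdown libraries, at 59.4, 48.7 and 59.1 CPM, overlapped WT (log2 -0.07 ± 0.08, adjusted p = 0.499).

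The ligands split in the knockdowns. HBEGF, TGFA and BTC, which were low in WT, rose in each of the 3 lines. AREG and EREG rose in the hnRNPM knockdown and fell in the other lines. Of these calls, the EREG rise and the AREG fall in the S100A16 knockdown were the most often lost in alternative analyses. These comparisons share the 3 untreated WT libraries. HB-EGF is made from a precursor that also stays on the cell surface and serves there as a receptor for diphtheria toxin. HBEGF (chromosome 5, 140332843 to 140346631, minus strand) was at 2.68, 1.68 and 2.09 CPM in untreated WT. It was at 16.4, 19.1 and 28.6 CPM in the hnRNPM knockdown, 3.71, 6.22 and 4.29 in the S100A16 knockdown and 3.46, 7.21 and 3.53 in the MagoHB knockdown. No knockdown library overlapped WT, and the hnRNPM knockdown lay above every other group. HBEGF rose 9.93-fold in the hnRNPM knockdown (log2 3.31 ± 0.31, edgeR adjusted p = 5.42e-07), 2.20-fold in the S100A16 knockdown (log2 1.14 ± 0.32, adjusted p = 0.00782) and 2.20-fold in the MagoHB knockdown (log2 1.15 ± 0.32, adjusted p = 0.00873). The MagoHB call was lost without replicate 2 of that knockdown (log2 0.70, adjusted p = 0.0698).

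AREG encodes amphiregulin and EREG epiregulin, ligands that often rise together in epithelial tumors. AREG (chromosome 4, 74445134 to 74455009, plus strand) was at 81.3, 79.0 and 88.4 CPM in untreated WT, 206, 214 and 167 in the hnRNPM knockdown, 69.8, 72.6 and 76.4 in the S100A16 knockdown and 48.3, 51.8 and 46.6 in the MagoHB knockdown. None of the knockdowns overlapped WT, the hnRNPM knockdown lying above it and the others below. AREG rose 2.36-fold in the hnRNPM knockdown (log2 1.24 ± 0.08, edgeR adjusted p = 1.28e-11) and fell by 0.76 ± 0.08 on the log2 scale in the MagoHB knockdown (adjusted p = 4.63e-08). In the S100A16 knockdown it fell by 0.18 ± 0.08 (adjusted p = 0.0451), and this call was lost in 5 of 15 alternative analyses. Among these were the fits without replicate 1 or 2 of the knockdown or without WT replicate 3 (log2 -0.24 to -0.15 over the single libraries left out), and total-count scaling turned the sign (log2 0.05, adjusted p = 0.576). The difference between the hnRNPM and MagoHB knockdowns was 4.01-fold (log2 2.00 ± 0.08, adjusted p = 5.35e-15).

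EREG (chromosome 4, 74365143 to 74388751, plus strand), 56382 bases before AREG, was at 41.3, 39.0 and 41.2 CPM in untreated WT. It was at 22.2, 26.2 and 26.0 CPM in the S100A16 knockdown, 12.8, 17.4 and 10.2 in the MagoHB knockdown and 50.7, 51.3 and 50.1 in the hnRNPM knockdown. The first 2 of these lay below WT in every library, and the hnRNPM knockdown lay above it. EREG fell by 1.58 ± 0.13 on the log2 scale in the MagoHB knockdown, to 33.3% of WT (edgeR adjusted p = 1.15e-08), and by 0.71 ± 0.12 in the S100A16 knockdown, to 61.2% (adjusted p = 8.20e-05). The rise in the hnRNPM knockdown was 0.32 ± 0.12 (adjusted p = 0.0315) and did not pass the threshold when any single library of that knockdown or of untreated WT was left out (log2 0.29 to 0.33, adjusted p up to 0.0985). The same stretch of chromosome 4 holds EPGN, which had at most 4 counts in any library and was not tested, and BTC, 289749 bases beyond AREG on the other strand. In both the S100A16 and the MagoHB knockdown BTC rose where EREG fell.

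TGFA (chromosome 2, 70447280 to 70554193, minus strand) encodes TGF-alpha and BTC (chromosome 4, 74744759 to 74794686, minus strand) betacellulin. TGFA was at 1.37, 1.05 and 0.774 CPM in untreated WT, 3.14, 2.91 and 3.89 in the S100A16 knockdown, 1.76, 2.17 and 3.50 in the hnRNPM knockdown and 1.99, 5.64 and 2.47 in the MagoHB knockdown. Every knockdown library exceeded every WT library. It rose 3.11-fold in the S100A16 knockdown (log2 1.64 ± 0.35, edgeR adjusted p = 8.63e-04), 3.16-fold in the MagoHB knockdown (log2 1.67 ± 0.35, adjusted p = 8.76e-04) and 2.33-fold in the hnRNPM knockdown (log2 1.22 ± 0.36, adjusted p = 0.00936). The last call was lost without replicate 3 of the hnRNPM knockdown (log2 0.87, adjusted p = 0.0708), and without replicate 2 the MagoHB value was log2 1.07.

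BTC was at 0.275, 0.432 and 0.273 CPM in untreated WT, 2.52, 2.13 and 2.22 in the S100A16 knockdown, 2.06, 1.07 and 1.54 in the hnRNPM knockdown and 0.759, 0.674 and 0.539 in the MagoHB knockdown. These levels are low, but the groups did not overlap WT. BTC rose 7.01-fold in the S100A16 knockdown (log2 2.80 ± 0.28, edgeR adjusted p = 3.24e-08), 4.77-fold in the hnRNPM knockdown (log2 2.26 ± 0.29, adjusted p = 1.09e-06) and 2.01-fold in the MagoHB knockdown (log2 1.00 ± 0.31, adjusted p = 0.0119). The MagoHB call was lost without WT replicate 1 or 3 (adjusted p up to 0.0559; log2 0.87 to 1.24 over the single libraries left out).

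ERRFI1 (chromosome 1, 8004404 to 8026308, minus strand), the feedback inhibitor, was lower than WT in every knockdown. Its levels were 176, 183 and 180 CPM in untreated WT, 113, 118 and 116 in the S100A16 knockdown, 146, 134 and 140 in the hnRNPM knockdown and 89.6, 66.6 and 83.5 in the MagoHB knockdown. No knockdown library reached the WT range. ERRFI1 fell by 1.17 ± 0.07 on the log2 scale in the MagoHB knockdown, to 44.5% of WT (edgeR adjusted p = 3.74e-11), by 0.63 ± 0.07 in the S100A16 knockdown, to 64.4% (adjusted p = 2.66e-07), and by 0.36 ± 0.07 in the hnRNPM knockdown, to 78.1% (adjusted p = 3.47e-04).

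ADAM17 (chromosome 2, 9488486 to 9555792, minus strand), the sheddase, showed the lowest level of these genes relative to WT, in the hnRNPM knockdown. It was at 230, 223 and 215 CPM in untreated WT, 30.0, 32.2 and 38.5 in the hnRNPM knockdown, 130, 129 and 125 in the MagoHB knockdown and 211, 212 and 210 in the S100A16 knockdown. The hnRNPM and MagoHB knockdowns lay below all other libraries, and the S100A16 knockdown lay just under the WT range. ADAM17 fell by 2.73 ± 0.07 on the log2 scale in the hnRNPM knockdown, to 15.1% of WT (edgeR adjusted p = 1.76e-17), and by 0.80 ± 0.07 in the MagoHB knockdown, to 57.6% (adjusted p = 2.32e-09). In the S100A16 knockdown the difference was -0.08 ± 0.07 (adjusted p = 0.325); it was called in a fit to those groups alone (-0.10, adjusted p = 0.00977), and was 0.16 under total-count scaling (adjusted p = 0.0570). All 15 alternative analyses kept the call in the hnRNPM knockdown, with values from -2.85 to -2.61. IAH1, on the opposite strand, shares exon bases with ADAM17 and fell by 1.12 in the hnRNPM knockdown (22.8 to 10.5 CPM, adjusted p = 4.94e-10). In that knockdown HBEGF and AREG, whose precursors ADAM17 is known to cut, were at their highest. TGFA, another such gene, was at 2.48 CPM there against 3.31 in the untreated S100A16 knockdown and 3.37 in the MagoHB knockdown. The other ligand genes, EREG and BTC, were at 50.7 and 1.56 CPM there. Their highest group means were 53.1 CPM in WT with H2O2 and 2.41 CPM in the S100A16 knockdown with H2O2.

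**Figure D2:**
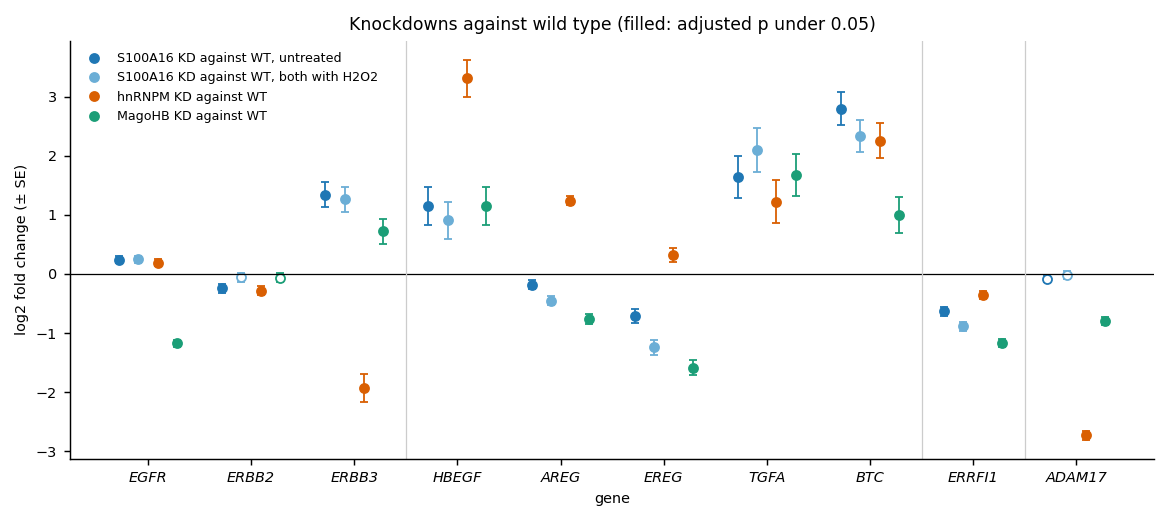
Log2 fold change against WT, with its SE, for each gene in the knockdowns; the S100A16 knockdown is shown without and with H2O2 in both lines. Filled points had an adjusted p under 0.05 over all genes tested. ADAM17 lay at -2.73 and HBEGF at 3.31 in the hnRNPM knockdown, and EGFR at -1.17 in the MagoHB knockdown.

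Counted together, 9 of the 10 genes changed in the S100A16 knockdown (5 higher, 4 lower) against 52.3% of all genes tested, 10 in the hnRNPM knockdown (6 higher, 4 lower) against 49.1%, and 9 in the MagoHB knockdown (4 higher, 5 lower) against 45.5%. With about 1 gene in 2 called in each line, single calls are common in these data. The median log2 fold change of the members was 0.08 in the S100A16 knockdown, 0.26 in the hnRNPM knockdown and -0.41 in the MagoHB knockdown, beside 0.06, 0.02 and 0.04 over all genes. Scaling by total counts alone raised the median of all genes by 0.24, 0.11 and 0.21 on the log2 scale in these comparisons. With it the members' split was 5 higher and 2 lower in the S100A16 knockdown, and stayed at 6 and 4 in the hnRNPM knockdown and at 4 and 5 in the MagoHB knockdown.

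The knockdowns were also compared directly with each other. Between the hnRNPM and MagoHB knockdowns 9 genes differed (6 higher and 3 lower in the hnRNPM knockdown) against 44.5% of all genes, including EGFR (2.57-fold, log2 1.36 ± 0.06, edgeR adjusted p = 2.96e-14) and EREG (3.76-fold, log2 1.91 ± 0.13, adjusted p = 5.56e-10). ERBB2 was among the 3 lower, but its groups overlapped. That call was lost in 4 of 15 alternative analyses (log2 -0.31 to -0.14, edgeR adjusted p up to 0.160). Between the S100A16 and MagoHB knockdowns 7 differed, all higher in the S100A16 knockdown, against 44.8%. EGFR was 2.66-fold higher there (log2 1.41 ± 0.06, adjusted p = 1.82e-14) and BTC 3.48-fold higher (log2 1.80 ± 0.25, adjusted p = 3.63e-06). The ERBB3 call among the 7 was lost in 4 of 15 alternative analyses (log2 0.32 to 0.78, adjusted p up to 0.073). HBEGF and TGFA had nearly equal means in those lines (log2 -0.01 ± 0.29 and -0.04 ± 0.31). Without the 3 libraries that stood apart both were higher in the S100A16 knockdown (0.57, edgeR adjusted p = 0.00348, and 0.58, adjusted p = 0.0232). ERBB2, not called in the main fit (-0.18, adjusted p = 0.0637), was then lower in the S100A16 knockdown (-0.27, adjusted p = 6.27e-05). It was also called lower with no filter beyond 1 count and without replicate 2 of the MagoHB knockdown. Between the S100A16 and hnRNPM knockdowns 6 differed (2 higher and 4 lower in the S100A16 knockdown) against 48.8%, and 8 did under total-count scaling (5 higher and 3 lower). The ERRFI1 call was lost under that scaling (log2 -0.15, edgeR adjusted p = 0.0578). Without the 3 libraries that stood apart, TGFA was called higher in the S100A16 knockdown (log2 0.78, edgeR adjusted p = 0.00253). ADAM17 was 6.28-fold higher in the S100A16 knockdown than in the hnRNPM knockdown (log2 2.65 ± 0.07, edgeR adjusted p = 1.21e-17).

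The mix of ligand and receptor mRNAs was compared on the RPKM scale, which divides by total counts. Summed over the 5 ligands, it was 53.5 ± 3.50 (SD, n = 3) in untreated WT, 55.7 ± 3.35 in the S100A16 knockdown, 134 ± 10.1 in the hnRNPM knockdown and 36.6 ± 4.71 in the MagoHB knockdown. AREG made up 85.5% to 87.3% of this sum in each of the 6 groups. The EREG share was 12.1% ± 0.417 in untreated WT and 6.56% ± 0.599 in the hnRNPM knockdown, while the HBEGF share was 1.22% ± 0.280 and 5.35% ± 2.18. For the 3 receptors the sum was 19.3 ± 0.369 RPKM in untreated WT and 27.6 ± 1.03 in the S100A16 knockdown. Scaling by total counts in itself raised the median of all genes by log2 0.24 in that comparison. It did so by 0.11 in the hnRNPM knockdown and 0.21 in the MagoHB knockdown. The ligand sums carry these shifts too: on the TMM scale AREG, most of the sum, was lower in the S100A16 knockdown (log2 -0.18). On the RPKM scale ERBB2 was at 5.17 ± 0.118 in WT and 5.15 ± 0.156 in the S100A16 knockdown. In the MagoHB knockdown the receptor sum was 15.3 ± 1.17. EGFR made up 42.3% ± 4.58 of it against 64.6% ± 1.22 in WT, and ERBB2 37.3% ± 0.110 against 26.7% ± 0.525. ERBB3 made up 2.33% ± 0.772 of receptor mRNA in the hnRNPM knockdown, 8.61% ± 0.818 in WT and 18.1% ± 1.16 in the S100A16 knockdown.

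**Figure D3:**
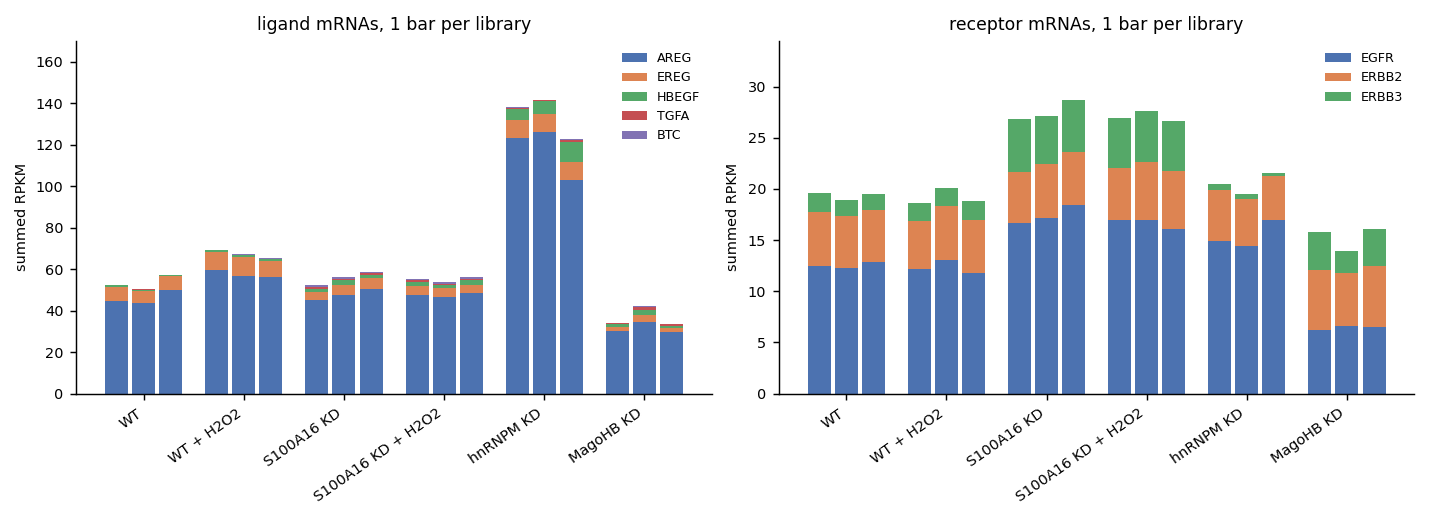
Summed RPKM of the 5 ligand mRNAs (left) and the 3 receptor mRNAs (right), 1 stacked bar per library, both axes from 0. AREG filled most of every ligand bar, the sums being highest in the hnRNPM knockdown (mean 134), and the EGFR segment was smallest in the MagoHB knockdown.

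The response to H2O2 was small. None of the 10 genes passed the test in WT, where 0.223% of all genes did, nor in the S100A16 knockdown, where 0.0134% did, nor did the difference between the 2 responses pass for any of them (0.0938% of all genes). At an unadjusted p under 0.05 these counts were 3, 0 and 3 of the 10, beside 1477, 1515 and 1134 of 22382 genes tested. In WT, EREG was at 54.0, 56.3 and 49.2 CPM with H2O2 against 41.3, 39.0 and 41.2 without, AREG at 108, 100 and 99.6 against 81.3, 79.0 and 88.4, and ERRFI1 at 210, 209 and 215 against 176, 183 and 180. HBEGF was at 2.89, 3.03 and 2.92 CPM with H2O2 against 2.68, 1.68 and 2.09 without. The log2 differences were 0.39 ± 0.12 for EREG (edgeR adjusted p = 0.393), 0.31 ± 0.08 for AREG (adjusted p = 0.141), 0.23 ± 0.07 for ERRFI1 (adjusted p = 0.393) and 0.45 ± 0.34 for HBEGF (adjusted p = 0.906). In the S100A16 knockdown the corresponding values were -0.14 ± 0.12, 0.04 ± 0.08, -0.02 ± 0.07 and 0.22 ± 0.29.

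These H2O2 results depended on how the libraries were analysed. In a fit to the 6 WT libraries alone, EREG (0.40, adjusted p = 2.44e-07), AREG (0.31, adjusted p = 3.25e-06) and ERRFI1 (0.24, adjusted p = 1.23e-05) were called. The same 3 genes were called without the 3 libraries that stood apart. Over all genes these fits called 555 and 417, against 50 in the main fit. DESeq2 called AREG alone of the members (adjusted p = 0.0362), among 97 of all genes. With no filter beyond 1 count, edgeR called EREG (adjusted p = 7.37e-04) and AREG (adjusted p = 0.00981), among 85 of all genes. The difference between the responses of the S100A16 knockdown and WT was -0.53 ± 0.17 for EREG (adjusted p = 0.686), -0.27 ± 0.11 for AREG (adjusted p = 0.888) and -0.25 ± 0.10 for ERRFI1 (adjusted p = 0.903). In an edgeR fit to the 4 groups concerned the adjusted p-values were 6.61e-06, 0.00400 and 0.00105. That fit called 256 of all genes for this difference, against 21 in the main fit.

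**Figure D4:**
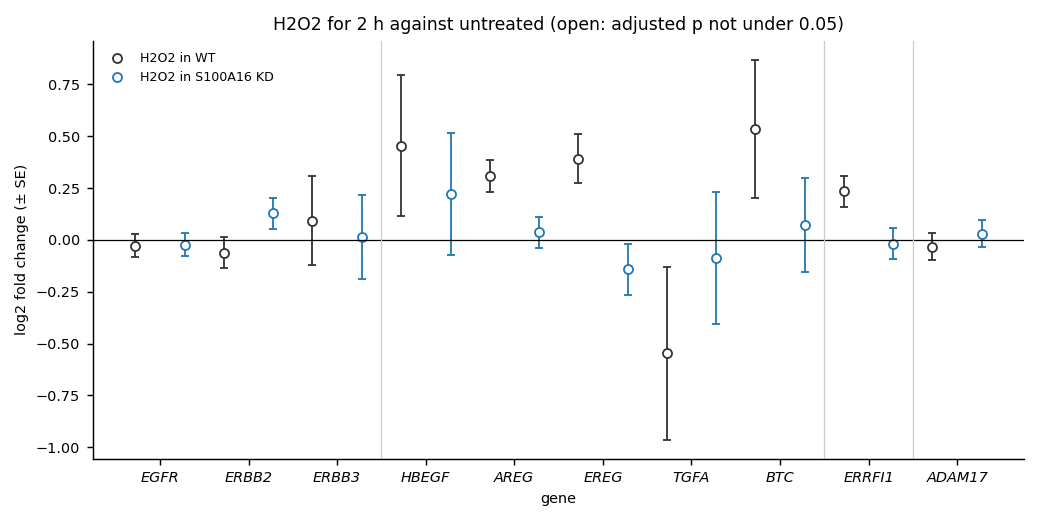
Log2 difference between H2O2-treated and untreated cells, with its SE, in WT and in the S100A16 knockdown, from the fit to all libraries. All points are open because none had an adjusted p under 0.05; EREG, AREG and ERRFI1 lay at 0.39, 0.31 and 0.23 in WT and at -0.14, 0.04 and -0.02 in the knockdown.

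With H2O2 in both lines, 8 of the 10 genes differed between the S100A16 knockdown and WT (5 higher, 3 lower) against 52.5% of all genes. EREG was at 23.3, 22.2 and 21.9 CPM in the treated knockdown, below all treated WT libraries, and fell by 1.24 ± 0.12 on the log2 scale (edgeR adjusted p = 1.33e-07). AREG, at 75.4, 73.9 and 75.2 CPM, fell by 0.46 ± 0.08 (adjusted p = 2.85e-05). ERRFI1, at 112, 115 and 116 CPM, fell by 0.89 ± 0.07 (adjusted p = 1.87e-09). TGFA, BTC, ERBB3, HBEGF and EGFR rose, by log2 2.10, 2.33, 1.26, 0.91 and 0.25. The HBEGF call (adjusted p = 0.0240) was lost in 5 of 15 alternative analyses, namely with no filter beyond 1 count and without replicate 3 of the treated knockdown or any 1 of the treated WT libraries (log2 0.78 to 0.98, adjusted p up to 0.0799).

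The libraries that stood apart carried distinct levels of several of these genes. Replicate 3 of the hnRNPM knockdown exceeded the mean of its other replicates by log2 0.69 for HBEGF and 0.83 for TGFA and lay below it for ERBB3 (-0.83) and AREG (-0.33). Replicate 2 of the MagoHB knockdown differed the same way for HBEGF (1.05), TGFA (1.34) and ERBB3 (-0.86) but not for AREG (0.13). It also differed in EREG (0.60) and ERRFI1 (-0.38), for which hnRNPM knockdown replicate 3 was close to its other replicates (-0.03 and -0.00). In the first replicate of the untreated S100A16 knockdown, HBEGF was lower by comparison (-0.50). EGFR, by contrast, differed by only -0.07, 0.15 and -0.01 in these libraries.

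**Figure D5:**
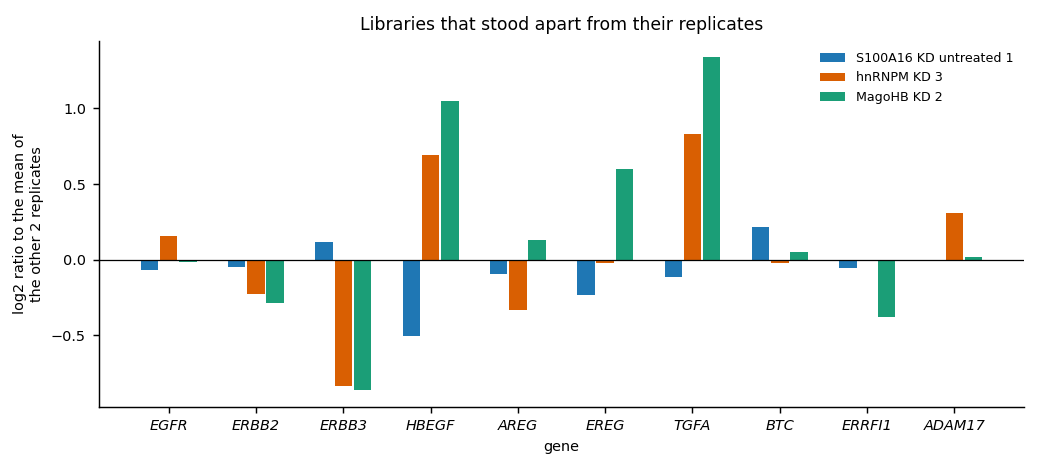
Log2 ratio of each of the 3 libraries that stood apart to the mean of the other 2 replicates of its group, by gene. HBEGF and TGFA were higher and ERBB3 lower in both hnRNPM knockdown replicate 3 and MagoHB knockdown replicate 2; the ratios for EGFR were -0.07, 0.15 and -0.01.

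Beyond the 10 members, 65 other genes of the pathway were listed and 62 tested; EPGN, NRG3 and CBLC had at most 4 counts in any library. None was called with H2O2 in either line. In the S100A16 knockdown 18 rose and 18 fell (52.3% of all genes were called there), in the hnRNPM knockdown 32 rose and 14 fell (49.1%), and in the MagoHB knockdown 12 rose and 17 fell (45.5%). The median log2 fold changes were 0.06, 0.20 and -0.01. CD82, a tetraspanin that restrains EGFR signaling, rose in each knockdown, from 0.289 CPM in WT to 2.34, 2.00 and 1.85 (log2 3.01, 2.78 and 2.69). STAT3, a transcription factor downstream of these receptors, rose from 61.1 to 168 CPM in the S100A16 knockdown (log2 1.46 ± 0.16), to 128 in the MagoHB knockdown (log2 1.07 ± 0.16) and to 115 in the hnRNPM knockdown (log2 0.91 ± 0.16).

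Of the 8 other genes of ligand shedding, 4 rose and 3 fell in the S100A16 knockdown, 3 rose and 3 fell in the hnRNPM knockdown, and 1 rose and 2 fell in the MagoHB knockdown, beside the same 52.3%, 49.1% and 45.5% of all genes called. ADAM9, a related protease, fell from 828 to 268 CPM in the MagoHB knockdown (log2 -1.63 ± 0.06, edgeR adjusted p = 3.51e-15). TIMP3, an inhibitor of ADAM17, rose from 0.563 to 3.33 CPM in the hnRNPM knockdown (log2 2.57 ± 0.40, adjusted p = 3.28e-05), the line in which ADAM17 was lowest. In the S100A16 knockdown ADAM15 (log2 -0.96) and FRMD8 (log2 -0.71), which encodes a partner of the iRhom proteins that carry ADAM17 to the surface, fell. In the hnRNPM knockdown NRAS (log2 -1.51), a RAS GTPase, and SOCS5 (log2 -1.09), a suppressor of EGFR signaling, fell. NRAS also fell in the MagoHB knockdown (log2 -1.07). Between knockdowns, NRG2, a neuregulin, was lower in the hnRNPM line than in the S100A16 line (2.92 CPM against 6.94, log2 1.26 for S100A16 over hnRNPM) and than in the MagoHB line (log2 -1.09). EPS15, an endocytic adaptor, was higher (log2 0.97) and the kinase gene BRAF lower (log2 -0.84) in the S100A16 than in the MagoHB knockdown. PIK3R1, a regulatory subunit of PI3K, was higher (log2 1.19) and the adaptor gene NCK1 lower (log2 -0.93) in the hnRNPM than in the MagoHB knockdown.

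For EGFR, HBEGF, AREG and EREG, the tested genes with the most similar profile were sought by the root mean square (RMS) difference of the 6 centered group means of log2 CPM, among 10516 candidates. Nearest to EGFR were GPR161 (RMS 0.0493), ASNSD1 (0.0547) and HSPA4L (0.0581). ASNSD1, for example, was at 28.2 CPM in untreated WT and 11.9 in the MagoHB knockdown. For HBEGF the nearest were MYBL1 (RMS 0.224), MARCH4 (0.265) and OXTR (0.344). These distances were not scaled to how much each gene varied. The RMS of its own centered means was 0.493 for EGFR, 1.03 for HBEGF, 0.608 for AREG and 0.717 for EREG. MYBL1, at 12.5 CPM in untreated WT, was at 91.2 in the hnRNPM knockdown. AREG was nearest to DUSP4 (0.139), GOLGA4 (0.150) and RGS2 (0.196), and EREG to NFATC2 (0.153), GALNT1 (0.181) and GNPNAT1 (0.188). These likenesses describe 6 group means and are not a test.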

How the data were processed

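Poly(A) mRNA of 18 A549 libraries was analysed, 3 in each of 6 groups taken from the labels. Gene-level read counts in whole numbers, and RPKM values made from them, were deposited by the authors. The submitters' processing notes name HISAT2 2.2.1, StringTie 2.1.4, SAMtools 1.15.1, FastQC 0.11.9 and DESeq2 1.32.0 and build GRCh38 (hg38). They do not say which program counted reads, with which annotation, or whether strand was used. The deposited RPKM values equaled the counts rescaled by exon length and library total, for 100% of 531539 values above 0 (relative tolerance 0.001). Only 18.6% to 22.0% of counts from 1 to 19 were odd, so both mates of a pair were probably counted, and halved counts were tried.

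Counts were tested with edgeR 4.0.16 in R 4.3.3 (robust quasi-likelihood F test, TMM, filterByExpr, 1 mean per group over all 18 libraries), with Benjamini-Hochberg adjustment over 22382 genes and calls under 0.05, in 10 comparisons. The SE is the log2 fold change divided by the square root of F. CPM are TMM-scaled. The fit was tested on simulated data. Alternatives were total-count scaling, RLE size factors, DESeq2 1.42.0, limma-trend (limma 3.58.1, prior count 2), no filter beyond 1 count, only the groups compared, a replicate block, halved counts, each library left out, and 3 libraries that stood apart left out together. Same-numbered replicates did not deviate together in most comparisons.

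The members, the pathway and marker lists and the tests were chosen with earlier results of these data known. Named genes were the members, the targeted genes, the 2 other pathway genes with the largest called rise and fall per comparison (mean of at least 1 CPM) and the 3 nearest profiles of EGFR, HBEGF, AREG and EREG (mean of at least 5 CPM).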

Additional observations from a re-analysis of the deposited data

How the results depend on the processing

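Member calls were recounted under each alternative. With H2O2 in WT, where none was called, 2 were called with no filter beyond 1 count and 3 with only the groups compared. DESeq2 called 1, and 3 were called without the 3 libraries that stood apart. Over all genes, calls went from 50 to 85, 555, 97 and 417 in these settings. For the interaction the member counts were 1 with no filter, 3 with only the groups compared and 3 without those libraries. Calls over all genes went there from 21 to 45, 256 and 190. The knockdown counts stayed within 1.5 times their value. With single libraries left out they were 8 to 9 (S100A16 KD against WT), 7 to 8 (under H2O2), 7 to 9 (hnRNPM KD), 7 to 9 (MagoHB KD), 6 to 7 (S100A16 against hnRNPM KD), 6 to 8 (S100A16 against MagoHB KD) and 8 to 9 (hnRNPM against MagoHB KD).

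Over all genes called, the share that was higher moved from 52.7% to 74.0% (S100A16 KD), 53.1% to 70.0% (under H2O2), 51.6% to 63.1% (hnRNPM KD), 51.1% to 74.7% (MagoHB KD), 50.4% to 62.9% (S100A16 against hnRNPM KD) and 50.2% to 39.1% (hnRNPM against MagoHB KD) under total-count scaling, and scaling by it gave these turned signs: ADAM17 0.159, AREG 0.0526 (S100A16 KD against WT), ERBB2 0.131, ADAM17 0.169 (under H2O2), ERBB2 0.140 (MagoHB KD), HBEGF 0.00974 (S100A16 against MagoHB KD), ERBB3 -0.0262, ADAM17 -0.00945, AREG -0.00425 (H2O2 in the S100A16 KD) and EGFR -0.0493 (interaction).

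Other turned signs were EGFR in the interaction (-0.00493 with halved counts, -0.0151 with only the groups compared, -0.0106 without the 3 libraries), ERBB2 without those libraries (0.0263 in the MagoHB KD, -0.0332 for S100A16 against hnRNPM KD) and, for S100A16 against MagoHB KD, TGFA (0.12 by limma-trend, 0.58 without the 3 libraries) and HBEGF (0.0557 by limma-trend, 0.57 without the 3 libraries). With the replicate block, HBEGF there was 0.000173, and 8 instead of 9 members were called in the S100A16 KD against WT, AREG being lost; no other call of a member changed. Same-numbered libraries correlated at -0.0163 to 0.0563 in their deviations, except between the hnRNPM and MagoHB KDs (0.240, -0.128 and -0.175).

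With 1 library left out, values that turned ranged over -0.0615 to 0.00931 (EGFR, H2O2 in WT), -0.0438 to 0.0169, -0.0368 to 0.0554, -0.172 to 0.0532 and -0.0445 to 0.199 (EGFR, ERBB3, TGFA and BTC, H2O2 in the S100A16 KD), -0.0283 to 0.0468 and -0.420 to 0.0160 (EGFR and HBEGF, interaction), -0.119 to 0.0211 (ERBB2, MagoHB KD), -0.0327 to 0.0966 (ERBB2, S100A16 against hnRNPM KD), -0.30 to 0.57 and -0.25 to 0.45 (TGFA and HBEGF, S100A16 against MagoHB KD) and -0.80 to 0.15 (TGFA, hnRNPM against MagoHB KD). Except where a value or fewer libraries show it, the cause was not tested. TGFA (24 to 318 counts) and BTC (12 to 113 counts) had the fewest counts per library of the members; with halved counts no call of a member was lost, and BTC gained one for S100A16 against hnRNPM KD (0.53, adjusted p = 0.0387 by edgeR).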

Other observations

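Some of the genes targeted in 1 line had lower levels in others. MAGOHB was at 44.4% of untreated WT in the hnRNPM knockdown and at 65.0% in the untreated S100A16 knockdown. HNRNPM was at 67.5% in the untreated S100A16 knockdown, and at 80.4% in the MagoHB knockdown. S100A16 was at 51.1% in the MagoHB knockdown and at 102% in the hnRNPM knockdown (ratios of mean CPM, n = 3 per group, without a test of these values).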
